A study of Mus musculus with 3 samples.

Results

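The genes described here are 9 genes of the circadian clock, chosen by symbol: Clock, Npas2, Arntl (also called Bmal1), Per1, Per2, Per3, Cry1, Cry2 and Dbp. All 9 were found among the 32531 gene symbols of the count files. They were measured in ribosome-bound RNA from whole cerebral cortex of adult mice with the Htr3a-Cre driver NO176 and the reporter Rosa26-LSL-EGFP/Rpl10a, in which cells that have expressed Cre make an EGFP-tagged form of the ribosomal protein Rpl10a. Tagged polysomes were immunopurified with antibodies against EGFP (translating ribosome affinity purification, TRAP), and the 3 libraries, replicates 1, 2 and 3, form a single group, so that every library carries both the driver and the reporter. Cre follows the Htr3a regulatory sequence, and a cell that expressed Cre only earlier in life also carries the tag. The labels give no time of day of collection, and separate animals are not stated for the replicates, so p-values measure only the spread between these libraries, which may be technical.

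The circadian clock is a feedback loop of transcription. CLOCK, or its relative NPAS2, pairs with ARNTL and switches on the Per and Cry genes through E-box sequences; the PER and CRY proteins then return to the nucleus and block that activity. In most tissues the transcripts of Arntl, the Per genes and Dbp rise and fall over the day, so the level of such a gene depends on the hour at which tissue is taken. Npas2 is known for its expression in the forebrain. With no unpurified control and no second condition, genes were compared with one another within the same libraries, and the libraries with one another.

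Counts assigned to genes came to between 13951332 and 14461053 per library. Levels are given as TPM, which corrects a count for the summed exon length of its gene, and values after ± are SDs over 3 libraries (n = 3). The marker lists for GABAergic neurons (8 of 8 genes at 1 TPM or more in 3 of 3 libraries) and Htr3a class interneurons (11 of 11) were present, with summed levels of 3889 to 4199 and 3594 to 4468 TPM. Excitatory neuron markers were present too, with a summed level of 3328 to 3705 TPM over 9 genes, 8 of which reached 1 TPM in 3 of 3 libraries. Lower sums came from markers of astrocytes (1256 to 1391 TPM, 8 genes), oligodendrocytes (257 to 427 TPM, 8 genes), microglia (12.5 to 21.4 TPM, 6 genes) and endothelium (2.71 to 3.19 TPM, 5 genes). No marker in any of these lists was at 0 in 3 of 3 libraries. Which cells the clock transcripts came from was not tested, and in such mixed RNA a smaller number of cells and a lower level per cell cannot be told apart.

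The 9 genes spanned a wide range, with Cry2, Clock and Npas2 at the top and Dbp far below the rest. Of the 9, 6 reached 10 TPM in 3 of 3 libraries (66.7%), against 7932 of the 16653 genes with a length and a count (47.6%). Their median level was 37.7 ± 5.11 TPM, against 11.1 ± 0.775 TPM over those 16653 genes. In order of mean level they ran Cry2, Clock, Npas2, Per1, Cry1, Per2, Per3, Arntl and Dbp.

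**Figure D1:**
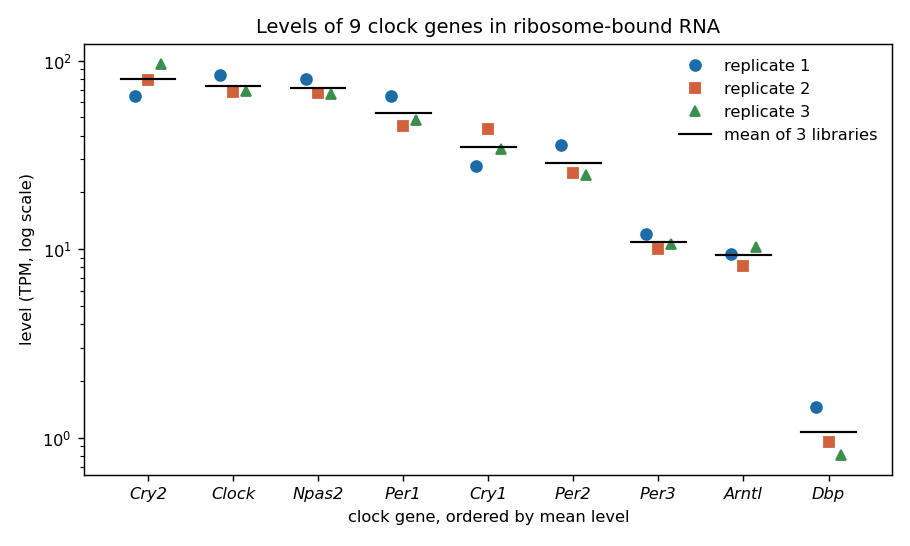
Level of each clock gene in TPM (vertical axis, log scale) in replicate 1 (circles), replicate 2 (squares) and replicate 3 (triangles), with the mean of the 3 libraries as a bar; genes are ordered by mean level. Cry2, Clock and Npas2 averaged 79.95, 73.7 and 71.3 TPM, Per3 and Arntl 10.9 and 9.28 TPM, and Dbp 1.07 TPM.

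Clock and Npas2, which encode interchangeable partners of ARNTL, had almost the same level per length. Clock stood at 83.8, 68.3 and 69.0 TPM in replicates 1, 2 and 3 (73.7 ± 8.75), from 3182, 2647 and 2746 counts. Npas2 stood at 80.4, 67.2 and 66.2 TPM (71.3 ± 7.89), from 1065, 910 and 919 counts. Both were highest in replicate 1, and Clock made up 50.8% ± 0.387 of their summed level, with less spread than either gene showed alone. The log2 difference of Clock minus Npas2 was 0.048 (SD 0.022, 95% interval -0.28 to 0.38), which did not pass the test (limma, adjusted p = 0.729). This near equality rests on the length used. Clock has 13727 nt of merged exons and Npas2 4791 nt, and with the longest annotated transcript as length the log2 difference was 0.36 (limma, adjusted p = 0.0436). Without a length correction it was 1.56.

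Arntl, the common partner of CLOCK and NPAS2, was much lower than either. Its level was 9.37, 8.14 and 10.3 TPM in replicates 1, 2 and 3 (9.28 ± 1.09), from 195, 173 and 225 counts. The libraries lay close together, and none came near a level of Clock or Npas2. Clock exceeded Arntl 7.87-fold (log2 difference 2.98, SD 0.22; limma, adjusted p = 1.58e-08) and Npas2 exceeded it 7.62-fold (log2 difference 2.93, SD 0.23; limma, adjusted p = 1.89e-08). Either order held in 3 of 3 libraries. When the spread was not moderated, both differences still passed, with larger p-values (limma, adjusted p = 0.00875 for Clock and 0.00896 for Npas2). The size of the gap depends on the length used: without a length correction the log2 differences were 3.85 for Clock and 2.28 for Npas2, and with the longest transcript as length 2.56 and 2.20. Arntl2, a paralog of Arntl that was not among the 9, had 2.50 ± 0.622 TPM.

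The 3 period genes, whose proteins form the repressing arm with the cryptochromes, stood in a clear order. Per1, which light and neuronal activity are known to induce, led with 65.1, 45.0 and 48.6 TPM in replicates 1, 2 and 3 (52.9 ± 10.7). Per2 had 35.7, 25.3 and 24.9 TPM (28.6 ± 6.13). Per3, which in mice is largely dispensable for the rhythm, had 12.002, 9.99 and 10.6 TPM (10.9 ± 1.03). All 3 were highest in replicate 1, and the libraries of no period gene overlapped with those of another. Per1 exceeded Per2 1.85-fold (log2 difference 0.89, SD 0.07; limma, adjusted p = 0.00713), a call that was lost without replicate 2 (0.92; limma, adjusted p = 0.0851) or without replicate 3 (0.85; limma, adjusted p = 0.0654). Per2 exceeded Per3 2.59-fold (log2 difference 1.37, SD 0.17; limma, adjusted p = 0.000690), and Per1 exceeded Per3 4.79-fold (log2 difference 2.26, SD 0.15; limma, adjusted p = 0.000114). These folds depend on the length used: with the longest transcript as length the log2 difference of Per2 minus Per3 was 0.70 and that of Per1 minus Per3 1.85, and without a length correction they were 0.66 and 1.495, all still past the threshold. The make-up of the family moved little between libraries: Per1 held 57.2% ± 0.985 of the summed period level, Per2 30.9% ± 1.16 and Per3 11.9% ± 1.09.

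Of the cryptochromes, the repressors that bind CLOCK and ARNTL, Cry1 was the lower. Cry1 stood at 27.5, 43.6 and 34.0 TPM in replicates 1, 2 and 3 (35.0 ± 8.09), highest in replicate 2. Cry2 stood at 64.6, 78.7 and 96.5 TPM (79.95 ± 15.98), highest in replicate 3. The libraries of the pair did not overlap. The log2 difference of Cry1 minus Cry2 was -1.20 (SD 0.33; limma, adjusted p = 7.37e-05), so that Cry2 was 2.29-fold higher and made up 69.5% ± 4.83 of their summed level. The difference passed also under both other length choices (-1.72 for the longest transcript and -2.11 for no correction). It passed with a larger p-value when the spread was not moderated (limma, adjusted p = 0.0360). An antisense gene, D930015M05Rik, covers 4.67% of the Cry2 exons, and whether the counts separate the strands is not given in the sources used here.

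The sequences just before the starts of Per1, Per3, Cry1 and Cry2 are shown because each held a match to a searched motif. Sequences without a match, among them that before another Per1 start, are not shown. CLOCK with ARNTL binds the E-box CACGTG and its variant CACGTT, while DBP and its relatives TEF and HLF bind the D-box TTATGTAA. RefSeq windows on GRCm38.p6 could be matched for 8 of the 9 genes, 12 windows in all since some genes have several starts, and Per2 was not matched. Each sequence is the 250 bases before a start, 5′ to 3′ on the gene's strand, with matches to a searched motif in capitals.
Per1 (chr11:69098699-69098948, plus strand): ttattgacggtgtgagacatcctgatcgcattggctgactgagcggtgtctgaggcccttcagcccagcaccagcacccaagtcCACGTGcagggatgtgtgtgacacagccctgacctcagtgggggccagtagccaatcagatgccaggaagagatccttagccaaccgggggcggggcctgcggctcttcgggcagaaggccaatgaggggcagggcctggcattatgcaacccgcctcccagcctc
Per3 (chr4:151044666-151044915, minus strand): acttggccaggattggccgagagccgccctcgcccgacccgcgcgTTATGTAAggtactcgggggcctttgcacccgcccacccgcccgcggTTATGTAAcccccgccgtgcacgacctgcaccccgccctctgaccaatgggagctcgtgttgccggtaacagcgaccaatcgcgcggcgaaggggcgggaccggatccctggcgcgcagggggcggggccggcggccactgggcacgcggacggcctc
Cry1 (chr10:85185055-85185304, minus strand): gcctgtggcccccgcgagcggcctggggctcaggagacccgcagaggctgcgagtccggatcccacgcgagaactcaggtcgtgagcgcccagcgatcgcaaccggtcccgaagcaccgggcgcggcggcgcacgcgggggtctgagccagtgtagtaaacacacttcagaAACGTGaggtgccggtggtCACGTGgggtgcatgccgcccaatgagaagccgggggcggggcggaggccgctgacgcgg
Cry2 (chr2:92434070-92434319, minus strand): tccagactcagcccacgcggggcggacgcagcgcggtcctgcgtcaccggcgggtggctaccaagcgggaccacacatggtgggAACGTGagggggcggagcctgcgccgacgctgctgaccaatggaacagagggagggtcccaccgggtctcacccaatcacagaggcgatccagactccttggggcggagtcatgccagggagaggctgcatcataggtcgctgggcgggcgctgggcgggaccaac

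Both strands were searched for the E-box CACGTG and its variant CACGTT. The other motifs were TTATGTAA, its variant TTACGTAA, the cyclic AMP response element TGACGTCA and the ROR element core TAGGTCA; TTATGTAA reads TTACATAA and CACGTT reads AACGTG on the other strand, and no matches overlapped. CACGTG was found in Per1 and Cry1 only, against 6.02% of the 32851 windows of that length. In Per1 it began 166 bases before the start, and the window of another Per1 start had none of the motifs. In Cry1 it began 60 bases before the start, with CACGTT at 79 bases. Cry2 held CACGTT alone, at 166 bases, a motif of 3.85% of windows. Per3 held TTATGTAA at 205 and at 158 bases, a motif of 0.819% of windows. The windows of Clock, Npas2, Arntl and Dbp held none of these letters. Only exact letters in the 250 bases before a start were searched, so elements elsewhere in a gene or with other letters were not covered. A match describes the sequence and is neither a binding site shown in these cells nor a cause of a level.

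Dbp, a D-box transcription factor and a classical output gene of the clock, was close to the limit of detection. It had 12, 8 and 7 counts in replicates 1, 2 and 3, a level of 1.45, 0.946 and 0.807 TPM (1.07 ± 0.338). As a share of each library this was 0.834 CPM (counts scaled to library size; Wilson 95% interval 0.477 to 1.46), 0.573 CPM (0.291 to 1.13) and 0.484 CPM (0.235 to 0.999), intervals that cover counting error only and that overlap. Each of the other 8 clock genes was higher than Dbp in 3 of 3 libraries, from 8.21-fold for Arntl (log2 difference 3.04, SD 0.46) to 69.5-fold for Cry2 (log2 difference 6.12, SD 0.68). With a pseudocount of 1 these 2 log2 differences were 2.32 and 5.28, and without a length correction 4.28 and 7.11. The 8 differences passed the test also when the spread was not moderated (limma, adjusted p between 0.00515 and 0.0122). In the moderated fit 95.2% of 12456 genes differed from Dbp, so a difference from Dbp is a property of nearly all genes tested.

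The relatives of Dbp in the same protein family were not low. Hlf stood at 331, 303 and 317 TPM in replicates 1, 2 and 3 (317 ± 14.2), and Tef at 49.5, 66.2 and 79.3 TPM (65.0 ± 14.9). Dbp made up 0.279% ± 0.0905 of the summed level of the family. Hlf exceeded Dbp 279-fold (limma without moderation, adjusted p = 0.00515) and Tef did so 56.2-fold (limma without moderation, adjusted p = 0.00983). Exons of Sphk2, on the opposite strand, overlap 18.0% of the Dbp exons. Reads ambiguous between genes made up 2.49% to 2.83% of all records and are in no gene's count; how many lay over Dbp is not known from the counts, and their part in its level was not tested.

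Over all pairs of the 9 genes, 28 of 36 differed (limma, Benjamini-Hochberg over all genes of a fit, threshold 0.05). This must be read against the whole table, since most genes differ in level from any given one: 86.8% of 12455 genes differed from Clock, 87.0% from Npas2, 84.9% from Arntl, 81.2% from Per1, 77.3% from Per2, 82.6% from Per3, 79.3% from Cry1 and 86.4% from Cry2. Of the 8 pairs of neighbours in the order of levels, 2 differed, Per2 above Per3 and Arntl above Dbp. Clock and Npas2 did not pass the test against Cry2, with log2 differences of -0.10 for Clock minus Cry2 (SD 0.44; limma, adjusted p = 0.700) and -0.15 for Npas2 minus Cry2 (SD 0.43; limma, adjusted p = 0.574). This too rests on the length used. Npas2 was called below Cry2 when scaled by the longest transcript (-0.64; limma, adjusted p = 0.0202) or not scaled by length (-0.55; limma, adjusted p = 0.0457), and Clock was called above Cry2 without a length correction (1.01; limma, adjusted p = 0.000640). With merged exons as length, both differences were above 0 in replicate 1 and below it in replicates 2 and 3, and without replicate 3 they were 0.085 and 0.043. Npas2 exceeded Per1 by 0.44 (SD 0.14; limma, adjusted p = 0.114) and Clock did so by 0.49 (SD 0.12; limma, adjusted p = 0.0833), in 3 of 3 libraries but short of the threshold; without replicate 1 both passed, at 0.51 and 0.55, and they passed without moderation. Clock minus Per1 passed also when scaled by the longest transcript (0.71) or not scaled by length (1.77) and with moderation that followed an intensity trend.

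Per1 minus Cry1 was 0.60 (SD 0.60; limma, adjusted p = 0.0541), just short of the threshold. It passed without replicate 2 (0.88), under both other length choices (0.73 for the longest transcript and 1.35 for no correction), with a pseudocount of 1 (0.59) and with an intensity trend (limma, adjusted p between 1.02e-05 and 0.0349). Per2 minus Cry1 was -0.29 (SD 0.60; limma, adjusted p = 0.373). Arntl minus Per3 was -0.23 (SD 0.17; limma, adjusted p = 0.198), and passed at -0.58 without a length correction (limma, adjusted p = 0.0156). Per3 was below Cry1, at a log2 difference of -1.66 for Per3 minus Cry1 (limma, adjusted p = 5.06e-08), but this call was lost without a length correction (-0.14; limma, adjusted p = 0.664). Per1 lay below Cry2 on average, at a log2 difference of -0.59 for Per1 minus Cry2 (SD 0.53; limma, adjusted p = 0.0342). This difference was 0.010 in replicate 1, -0.80 in replicate 2 and -0.99 in replicate 3. Its call was lost without replicate 2 (-0.49) or replicate 3 (-0.40), with no filter on low counts, without moderation and when read from the fit of Per1. The differences of Clock and Npas2 from Cry1 (1.09 and 1.04) and of Per2 from Cry2 (-1.48) lost their calls without moderation (limma, adjusted p = 0.0859, 0.0868 and 0.0588). Failing the test does not show that levels were equal.

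**Figure D2:**
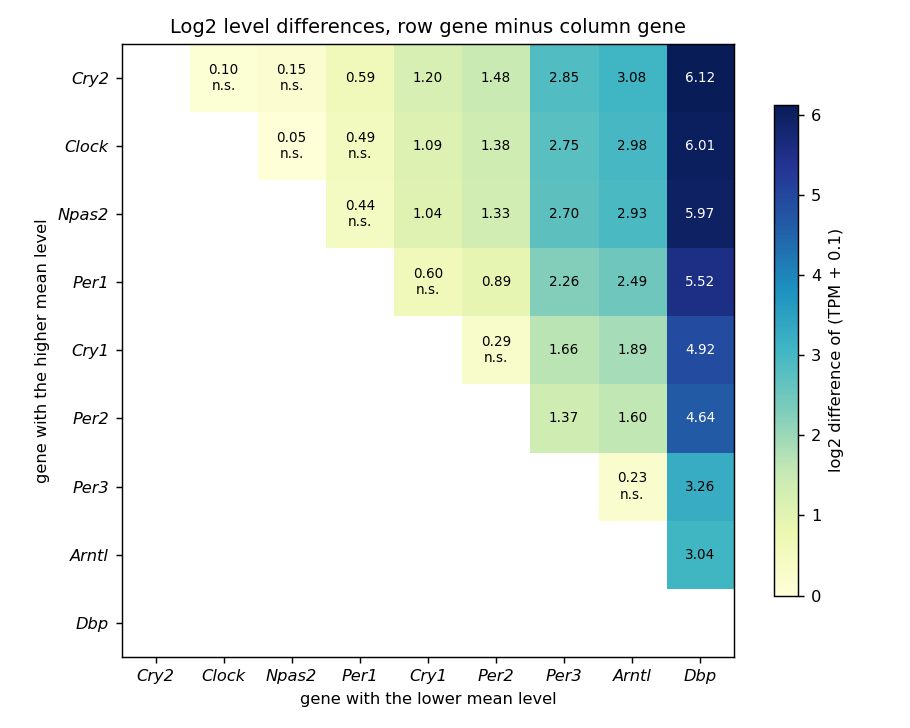
Log2 difference of (TPM + 0.1) for each pair of clock genes, row gene minus column gene, both ordered by mean level; darker cells are larger differences and n.s. marks the 8 of 36 pairs that did not pass the test. The Dbp column runs from 3.04 (Arntl) to 6.12 (Cry2), and the upper left corner, among Cry2, Clock and Npas2, holds differences of 0.048 to 0.15.

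The spread between libraries was then set against counting error, after TMM scaling (trimmed mean of M-values) of the library sizes. Of the 8 clock genes that averaged 1 CPM or more, 7 varied beyond counting error (chi-square test, Benjamini-Hochberg over 12949 genes), against 74.3% of all genes tested, so such variation was common in these libraries and not particular to the clock. Clock (chi-square test, adjusted p = 1.23e-21), Cry2 (adjusted p = 5.90e-21) and Per1 (adjusted p = 8.51e-17) had the smallest p-values. Arntl did not pass (adjusted p = 0.0992), and Per3 passed narrowly (adjusted p = 0.0459), a call lost without a filter (adjusted p = 0.0563) and with total counts in place of TMM scaling (adjusted p = 0.297). The Per3 call was also lost without replicate 1 (chi-square test, adjusted p = 0.687) or replicate 2 (adjusted p = 0.0702). The Cry1 call was lost without replicate 2 (chi-square test, adjusted p = 0.0564). Dbp was under the filter. The ratio of the highest to the lowest library ran from 1.22 for Per3 to 1.56 for Cry1. Its median was 1.35 over the 8 genes and 1.41 over all genes tested. Clock and Arntl had the same ratio, 1.25, so these p-values follow the number of counts as well as the spread. The biological coefficient of variation estimated by edgeR ran from 14.6% for Clock to 22.3% for Arntl. Its median was 19.1% for the 8 genes and 22.4% for all genes tested. The estimate for a gene is drawn toward those of genes at a similar level, so this order is not one of spread alone. The SD of TPM was 11.9% of the mean for Clock and 11.8% for Arntl.

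The libraries did not shift the clock genes in one way. Clock, Npas2, Per1, Per2, Per3 and Dbp, 6 of the 9, were highest in replicate 1, where 38.0% of all genes tested were highest. Dbp, with 12, 8 and 7 counts, was under the filter of the genes tested, so its place in that count says little. Cry1 was highest in replicate 2 and Cry2 and Arntl in replicate 3. Per1 and Per2 in replicate 1 lay 0.34 and 0.36 above their geometric mean on the log2 scale, while Cry1 and Cry2 were at -0.30 and -0.26. Without replicate 1, 2 of the 8 genes, Cry1 and Cry2, varied beyond counting error, against 42.5% of all genes. Replicate 1 also had the highest summed level in 5 of the 7 marker lists. For Htr3a class markers the sums were 4468, 3594 and 3737 TPM in replicates 1, 2 and 3, and for GABAergic markers 4199, 4118 and 3889 TPM. For excitatory markers they were 3705, 3328 and 3386 TPM, for astrocyte markers 1391, 1335 and 1256 TPM, and for oligodendrocyte markers 427, 285 and 257 TPM. The sums and the medians of a list did not always move together: the median oligodendrocyte marker stood at 34.6, 35.0 and 33.5 TPM, and the median GABAergic marker at 158, 182 and 206 TPM, lowest in replicate 1. Their part in the clock gene values was not tested.

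**Figure D3:**
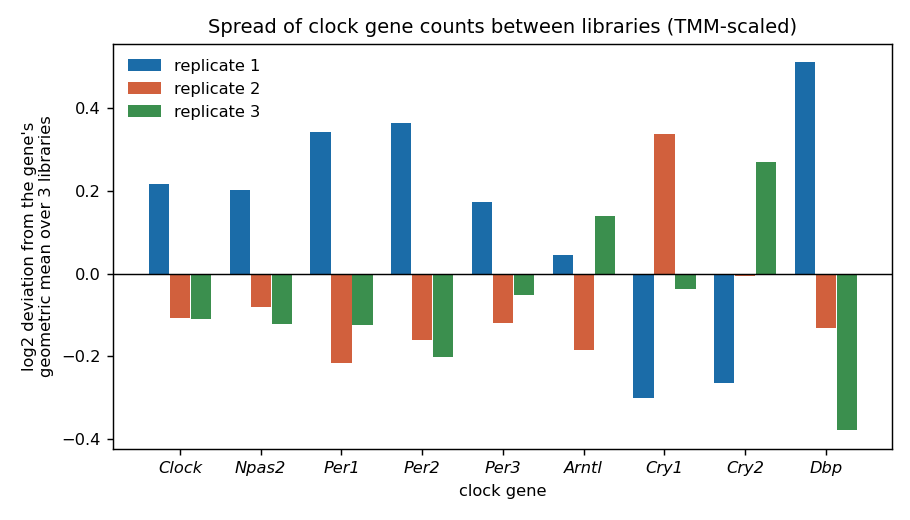
Deviation of each clock gene's TMM-scaled counts from its own geometric mean over the libraries, on the log2 scale (vertical axis), in replicates 1, 2 and 3 (bars, left to right). Replicate 1 is above 0 for Clock, Npas2, the 3 period genes, Arntl and Dbp and below 0 for Cry1 and Cry2; the bars of Dbp rest on 12, 8 and 7 counts.

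Another 24 genes of the clock pathway were found in the files, Noct under its older symbol Ccrn4l. Of these, 22 reached 10 TPM in 3 of 3 libraries, and their median level was 69.6 ± 3.66 TPM. Among all 16653 genes with a length and a count, 47.6% reached that level and the median was 11.1 ± 0.775 TPM. All 24 could be tested against Clock: 6 were higher, 8 lower and 10 did not pass (limma, Benjamini-Hochberg over all genes), while 16.2% of all genes were above Clock and 70.7% below it. The 6 above were Gsk3b, a kinase that phosphorylates clock proteins (485 ± 55.8 TPM), Hlf, the CLOCK-binding repressor Cipc (163 ± 25.3 TPM), the nuclear receptor Rora (152 ± 17.2 TPM), Fbxw11, a ubiquitin ligase subunit that acts on PER proteins (140 ± 9.01 TPM), and Csnk1e, a casein kinase that marks PER proteins for decay (116 ± 16.1 TPM). These calls used merged exons as length, and their dependence on the length was not tested. Without a length correction Clock averaged 200 CPM, above Cipc (157 CPM), Csnk1e (152 CPM) and Fbxw11 (120 CPM). Gsk3b (945 CPM), Hlf (420 CPM) and Rora (394 CPM) stayed above Clock.

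Nr1d1 and Nr1d2 encode the REV-ERB receptors that repress Arntl. Nr1d1 had 75.4, 51.7 and 40.3 TPM in replicates 1, 2 and 3 (55.8 ± 17.9), highest in replicate 1, and Thra exons on the other strand overlap 8.55% of its own. Nr1d2 had 77.3, 79.0 and 79.3 TPM (78.6 ± 1.08) and did not vary beyond counting error (chi-square test, adjusted p = 0.982). Bhlhe40 and Bhlhe41, repressors that compete for E-boxes, had 80.1 ± 9.29 and 54.5 ± 10.9 TPM, and the D-box repressor Nfil3 34.2 ± 7.46 TPM. Exons of Gm43909, on the opposite strand, overlap 19.0% of the Bhlhe41 exons. Among Nr1d1, Nr1d2, Bhlhe40, Bhlhe41 and Nfil3, only Nfil3 differed from Clock with merged exons as length. Nfil3 was lower (log2 difference -1.12, SD 0.39; limma, adjusted p = 0.00461). The lowest were Ciart (16.5 ± 3.02 TPM), a repressor of CLOCK and ARNTL, then Arntl2 and Timeless. Timeless, whose mammalian form is known for its part in DNA replication, had 4, 41 and 16 counts in replicates 1, 2 and 3 (1.17 ± 1.09 TPM). Of the 24 genes tested, 20 varied between libraries beyond counting error, where 74.3% of all genes did, so the count says little about the pathway.

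**Figure D4:**
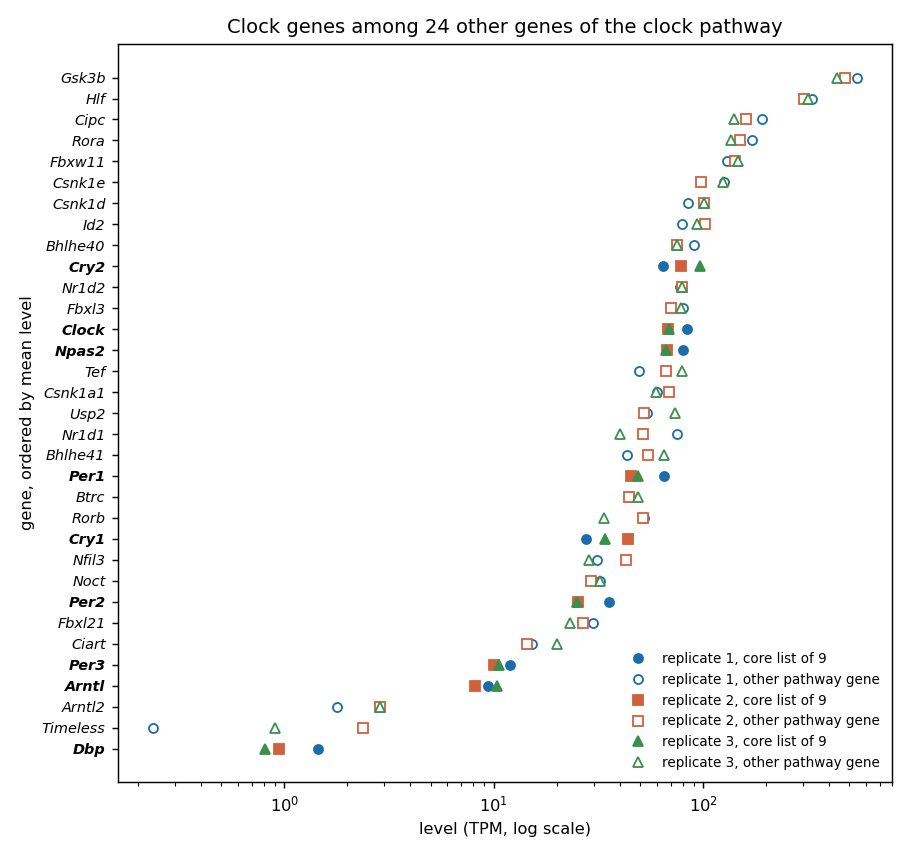
Level in TPM (horizontal axis, log scale) of the 9 clock genes (filled symbols, bold names) and 24 other genes of the clock pathway (open symbols) in replicates 1, 2 and 3, ordered by mean level. Gsk3b is highest at 485 TPM and Dbp lowest at 1.07 TPM; Arntl and Per3 lie below all of the 24 other genes but Arntl2 and Timeless.

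The genes closest to each clock gene in level and pattern were found by the smallest root-mean-square difference of log2(TPM + 0.1) over the 3 libraries, among 12448 genes. Per2 was nearest to Plekha5 (0.00903), Clock to Nav1 (0.00994), Per3 to Elovl2 (0.0253), Npas2 to C130071C03Rik (0.0262) and Cry1 to Pmpcb (0.0387). Per1 was nearest to Pacs2 (0.0420), Cry2 to Mrps14 (0.0471), Arntl to Chka (0.0526) and Dbp to Grin2c (0.0783). With 3 libraries such likeness says little beyond a shared level.

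In GRCm38, Clock lies on chromosome 5 from 76209868 to 76304792 and Npas2 on chromosome 1 from 39193731 to 39363236. Arntl lies on chromosome 7 from 113207465 to 113314126 and Dbp on the same chromosome from 45705088 to 45710203. Per1 lies on chromosome 11 from 69095217 to 69109960, Per2 on chromosome 1 from 91415982 to 91459324 and Per3 on chromosome 4 from 151003652 to 151044665. Cry1 lies on chromosome 10 from 85131700 to 85185064 and Cry2 on chromosome 2 from 92403646 to 92434043. All 9 are protein-coding. Their counts are per gene symbol, and the length used for TPM was the merged exons of all annotated transcripts of a gene.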

How the data were processed

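The deposited files hold whole-number counts per gene symbol, 1 file per library, not normalized. Per the submitters' processing notes, STAR 2.0.0e, HTSeq and mm10 were used, with no role stated. Annotation, counting mode and strand setting: not given in the sources used here. Left out were 5 closing lines that name no gene (11.0% to 13.1% of records on no feature, 2.49% to 2.83% ambiguous, 11.2% to 13.1% not uniquely aligned) and 1 line named unknown, at 0. A count of 0 allows up to 3 counts, 0.207 to 0.215 CPM.

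TPM was computed from the deposited counts with merged exon lengths of GENCODE M21 (GRCm38, which mm10 denotes): 23155 symbols matched directly, 737 by an older name through RefSeq, and 8639 had none. Symbols with a length held 94.7% to 97.1% of the counts.

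For each clock gene, log2(TPM + 0.1) of every gene minus that gene, within library, was tested against 0 with limma 3.58.1, two-sided, over all genes that averaged 1 CPM or more, adjusted by Benjamini-Hochberg (threshold 0.05). The pair was read from the fit of its later-listed gene. All differences in a fit share 1 gene, so their spreads are not independent. In the fits for Cry1 and Dbp the spread was wholly pooled, and those p-values are smaller than independent spreads would give. Other moderated p-values, such as those from the fits for Arntl and Cry2, can be too small for the same reason. A pseudocount understates differences from low genes. Variation between libraries was tested by chi-square on TMM-scaled counts, with dispersions from edgeR 4.0.16; DESeq2 1.42.0 gave alternative size factors. Other software was Python 3.11.15 with NumPy 2.4.6 and pandas 2.3.3, matplotlib 3.10.9 for figures, SciPy 1.17.1 for intervals, and R 4.3.3. Promoter sequences are from RefSeq (GRCm38.p6).

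The 9 genes, the 24 pathway genes, the marker lists and the tests were chosen with earlier results of these data known. Named were all 9 genes, any pathway gene (1 more gene of the list is not reported here), and for each clock gene its nearest gene.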

Additional observations from a re-analysis of the deposited data

How the results depend on the processing

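The count of 28 called pairs of 36 was 26 to 33 under the alternatives tried, and 26 to 30 when 1 library was left out. Without moderation, an alternative chosen after seeing the data, it was 26. Read from the fit of the other gene, also chosen afterwards, 21 of 28 pairs were called, against 20 of the same 28. Clock minus Npas2 passed the threshold at 0.36 with the longest transcript as length and at 1.56 without a length correction, and stayed at 0.041 to 0.060 when 1 library was left out. Per1 minus Per2 ran from 0.85 to 0.92 when 1 library was left out, and lost its call without replicate 2 or 3. The other 5 pairs of related genes kept direction and call under all alternatives tried, but their unlogged folds moved by over 1.5 times with the length used. Without a length correction the log2 differences moved to 0.66 (Per2 minus Per3, against 1.37), 1.495 (Per1 minus Per3, against 2.26), -2.11 (Cry1 minus Cry2, against -1.20), 3.85 (Clock minus Arntl, against 2.98) and 2.28 (Npas2 minus Arntl, against 2.93).

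Reversed were Arntl minus Per3 (0.0037 with the longest transcript as length, and -0.58, past the threshold, without a length correction), Clock minus Cry2 (1.01, past the threshold, without a length correction, and -0.34 to 0.085 when 1 library was left out, the last without replicate 3), Per2 minus Cry1 (0.52 without a length correction) and Npas2 minus Cry2 (-0.39 to 0.043 when 1 library was left out, the last without replicate 3, and past the threshold at -0.64 with the longest transcript as length and at -0.55 without a length correction). Per3 minus Cry1 lost its call without a length correction (-0.14). The median level of the 9 genes was 30.7 TPM with the longest transcript as length, against 37.7 TPM, and 34.8 to 39.6 TPM when 1 library was left out. Genes varying between libraries numbered 6 or 7 under other scalings and filters and 2 to 7 when 1 library was left out, with 2 without replicate 1. Without a filter Dbp did not vary beyond counting error (chi-square test, adjusted p = 0.421). Dbp rests on 7 to 12 counts per library. Samples could not be paired between groups because there is 1 group only.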
